A study of Mus musculus with 34 samples.

Results

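H3.3K36M, a histone H3.3 in which the lysine at position 36 is replaced by methionine, was compared with WT H3.3 in brown preadipocytes on the second day of adipogenesis (D2), gene by gene. A gene was a member of the comparison when its RPKM, the reads of a transcript scaled to its length and to the depth of the library, was at least 1 in the WT or the K36M library. Of 23109 genes in the series, 11964 met this rule. Where a gene has several RefSeq transcripts, the one highest on average in the 14 libraries stood for it, and genes on both sides of the comparison are described.

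The cells came from the interscapular brown fat of newborn C57BL/6J pups, were immortalized with SV40T and then received, by retrovirus, FLAG-tagged H3.3 with or without the K36M change. At D2 both populations had spent 2 days in the same induction mixture of insulin, T3, IBMX, dexamethasone and indomethacin. The immortalization, the virus, the tag and the drugs were shared by design and the residue differed. The 2 libraries also differed in depth and in transcripts of pluripotent stem cells, as given below. Each condition was sequenced once from 1 infected population, and no difference given here has a replicate check. The same 2 kinds of cells before induction (D0) and at D7, and a separate pair of cultures at D2, in which *Nsd2* was knocked down by shRNA (KD) or not (Ctrl, labelled Con), are used for comparison. The labels describe preadipocytes from pups with a floxed glucocorticoid receptor gene and a Cre vector, whereas the paper describes histone viruses in cells of WT pups, so groups were taken from the sample titles alone. The receptor gene, *Nr3c1* (chr18:39570199-39650955, mm9), had 17.7 RPKM in WT and 17.6 RPKM in K36M cells at D2.

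In a preadipocyte, methylation of H3K36 and the repressive mark H3K27me3 tend to occupy different stretches of chromatin, and lysine-to-methionine histones act as dominant inhibitors of the enzymes that write the mark on that residue. The induction mixture drives adipogenesis through cAMP, the glucocorticoid receptor and insulin: C/EBPβ comes first, C/EBPα and PPARγ follow, and the genes for taking up, making and storing fat come last. During the same days a preadipocyte shuts down genes of its fibroblast-like state, such as those for extracellular matrix and contractile fibres, and glucocorticoid also lowers inflammatory and interferon-driven genes.

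The WT D2 library held 19103785 mapped reads and the K36M D2 library 12529719, at which 3 reads of a 1-kb transcript equal 0.157 and 0.239 RPKM. The whole reads were recovered from the RPKM values, and intervals below are 95% Clopper-Pearson intervals of the K36M to WT ratio, which cover counting error only. In bulk RNA, fewer cells that express a gene and less RNA per cell cannot be told apart. Markers of some other cell types were low in both libraries: 6 macrophage markers summed to 0.444 RPKM in WT and 1.34 RPKM in K36M cells, and 5 endothelial markers to 0.343 and 0.329 RPKM. The 4 epithelial markers summed to 2.41 RPKM in WT and 0.207 RPKM in K36M cells. Among them, *Epcam* and *Cdh1* also belong to the genes of pluripotent stem cells described below. The 5 bone markers summed to 51.2 RPKM in WT and 20.2 RPKM in K36M cells, most of it *Alpl*, a phosphatase not restricted to bone, with 46.8 and 11.99 RPKM, while the bone-defining *Sp7*, *Bglap* and *Ibsp* were under 1 RPKM in both. The smooth muscle markers, which were higher in K36M cells, are given with the contractile genes. The adipocyte label held for 6 markers, which summed to 3578 RPKM in WT and 1597 RPKM in K36M cells. Most of it was *Fabp4*, with 3249 and 1473 RPKM. Of the 6, 4 were over 2-fold lower in K36M cells, while *Adipoq* had 6.16 and 10.6 RPKM and *Cfd* 1.64 and 1.47 RPKM. The brown label held only in part at D2. *Cidea* and *Cox8b* were at 0 in both libraries and *Ucp1*, the uncoupling protein of brown fat, had 0.159 RPKM in WT and 0.194 RPKM in K36M cells. *Ucp1* was also low at D7, with 0.0457 and 0 RPKM. Of the 9 brown fat markers, 4 had at least 1 RPKM in WT and 5 in K36M cells. *Ebf2* had 25.4 and 17.8 RPKM and *Lhx8* 3.81 and 8.03 RPKM. *Zic1* had 3.17 and 2.07 RPKM and *Prdm16* 1.55 and 3.36 RPKM.

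The libraries also differed in transcripts that neither preadipocytes nor adipocytes are known for. In the WT D2 library, 15 genes of pluripotent stem cells, among them *Pou5f1*, *Nanog*, *Sox2* and *Esrrb*, summed to 20.3 RPKM, against 0.293 RPKM in the K36M D2 library, where 10 of them were at 0. Both D0 libraries carried them, at 25.3 RPKM in WT and 23.5 RPKM in K36M cells, while the D7 and Ctrl libraries summed to between 0.306 and 0.417 RPKM. The WT D0, K36M D0 and WT D2 libraries also held more mapped reads, between 19103785 and 21388064. The K36M D2, WT D7 and K36M D7 libraries held between 12213559 and 13319336. The WT and K36M libraries of D2 thus fell on different sides of this split. Its part in the D2 ratios was not tested and cannot be told apart from that of the K36M change. The 15 genes were chosen after their values had been seen. A wider search for the same on and off pattern across the WT and K36M libraries found 26 genes, of which 16 were members, and all 16 were over 2-fold lower in K36M cells at D2, as the search required. Without them 507 of 523 lower genes were left. By its rule the search could take out no higher gene. It also could not find genes that the K36M D2 or the D7 libraries express as well, so the number of calls affected is not known. Of the members of the gene lists described below, *Esrrb* and *Sox2* had the pattern.

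Of the 11964 genes, 523 (4.37%) were over 2-fold lower and 1338 (11.2%) over 2-fold higher with K36M at D2. The counting interval excluded a ratio of 1 for 468 of the lower and 1269 of the higher genes. In 41 lower genes the K36M library had no read, and in 32 higher genes the WT library had none. More genes were higher than lower at all levels up to 100 RPKM. Where the larger of the 2 RPKM values was between 1 and 2, 28.7% of 1117 genes were higher and 10.8% lower, between 5 and 20 RPKM 8.28% of 5207 genes were higher and 2.46% lower, and between 20 and 100 RPKM 5.49% of 3113 genes were higher and 3.02% lower. Among the 475 genes over 100 RPKM the order turned, with 10.7% lower, 9.05% higher and a median log2 ratio of -0.24, compared with 0.07 over all 11964 genes. Scaling the libraries by a trimmed mean of their ratios moved this median to -0.04, and the ratios given here are unscaled.

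**Figure D1:**
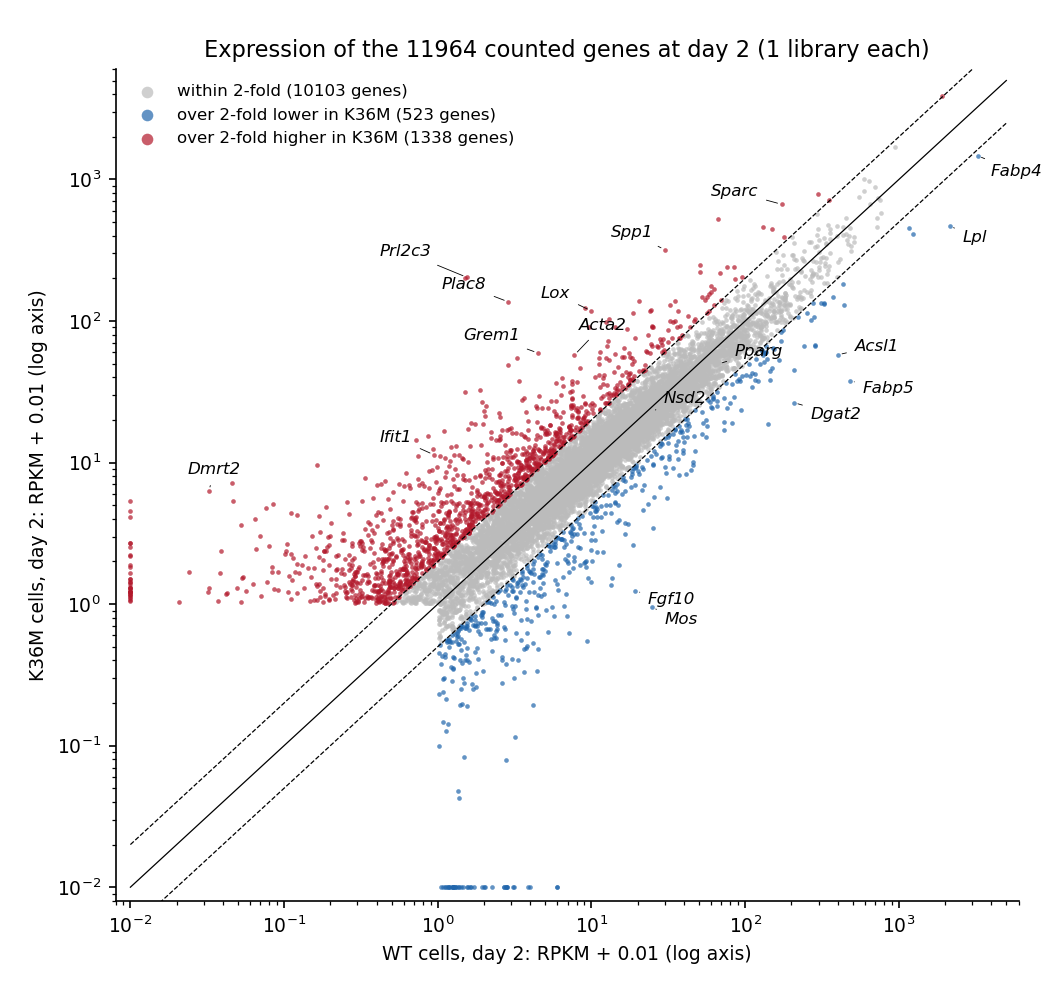
RPKM of each gene in WT (x axis) and K36M cells (y axis) at D2, with 0.01 added to each value and both axes on a log scale, for the 11964 genes with at least 1 RPKM in either library. Blue points are the 523 genes over 2-fold lower and red points the 1338 over 2-fold higher in K36M cells, and grey points lie within 2-fold.

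To see where these genes stand in a normal course of adipogenesis without using the WT D2 library again, they were sorted by their change from D0 to D2 in the Ctrl shRNA cells, which share no library with this comparison. Genes induced over 2-fold in Ctrl cells numbered 1317 among the members. Of these, 209 (15.9%) were lower and 78 (5.92%) higher in K36M cells, with a median log2 ratio of -0.31, and they made up 40.0% of all lower genes. Genes repressed over 2-fold in Ctrl cells numbered 1554, and of these 665 (42.8%) were higher and 45 (2.90%) lower in K36M cells, with a median of 0.83. They made up 49.7% of all higher genes. The remaining 9093 genes held 269 lower and 595 higher genes with a median of 0.04. Ctrl cells received a different virus and were cultured as a separate experiment, and the count for repressed genes was added after the values had been seen.

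**Figure D2:**
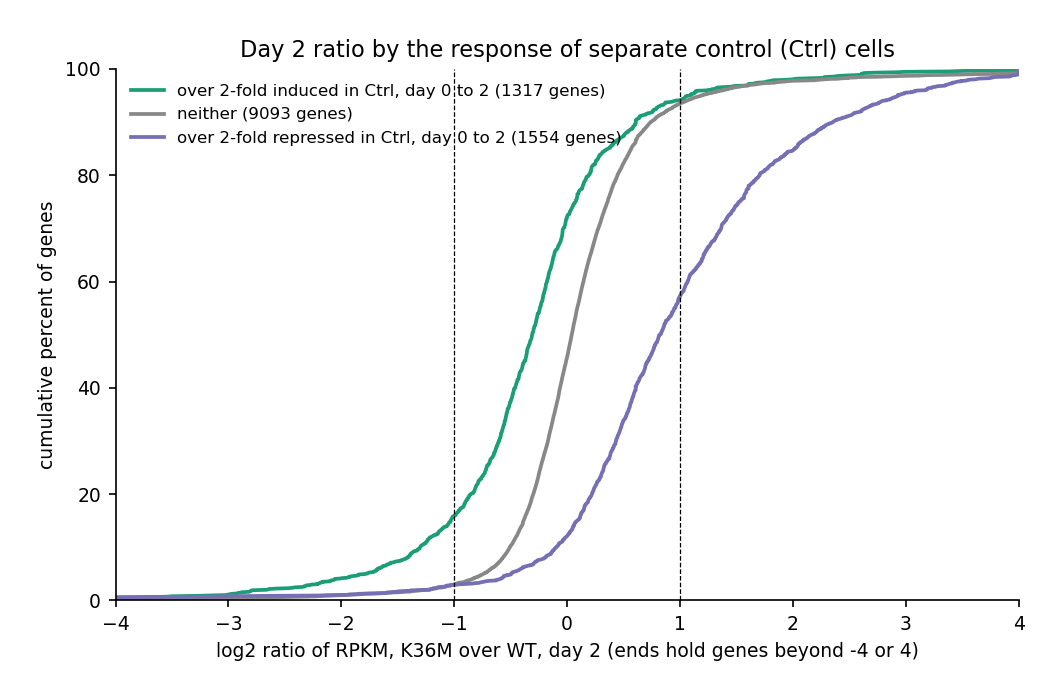
Cumulative percent of genes (y axis) by log2 ratio of K36M over WT at D2 (x axis), for genes induced over 2-fold, repressed over 2-fold or neither from D0 to D2 in Ctrl shRNA cells. The curve of the repressed genes lies to the right, with a median of 0.83, and that of the induced genes to the left, with a median of -0.31.

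Fat storage genes formed the clearest group on the lower side. Of 48 measured genes for lipid uptake and storage, 21 were over 2-fold lower and 3 higher in K36M cells, beside 4.37% and 11.2% over all genes. The median log2 ratio was -0.65 beside 0.07 for all genes. By role, 5 of 8 lipolysis genes, 5 of 14 for fatty acid uptake and binding, 6 of 14 for triglyceride synthesis and 5 of 12 for the lipid droplet coat were lower. *Fabp5*, a carrier of fatty acids in the cytoplasm, had 482 RPKM in WT and 37.7 RPKM in K36M cells, 12.8-fold lower (log2 ratio -3.68, interval -3.82 to -3.54). *Dgat2* (chr7:106302173-106331223, mm9), which adds the last fatty acid to triglyceride, had 207 RPKM in WT and 26.5 RPKM in K36M cells (-2.97, -3.08 to -2.86). *Acsl1*, which activates long-chain fatty acids, had 402 RPKM in WT and 57.7 RPKM in K36M cells (-2.80, -2.85 to -2.74). All 3 lay several-fold below the WT level, and their D0 values, between 11.6 and 30.3 RPKM in WT and between 6.44 and 17.4 RPKM in K36M cells, were much closer. *Lpl*, the lipoprotein lipase that frees fatty acids at the cell surface, was already lower at D0, with 204 RPKM in WT and 55.5 RPKM in K36M cells, and it had 2145 and 470.3 RPKM at D2.

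Some other genes of fat cells differed less than *Fabp5*, *Dgat2* and *Acsl1*. *Fabp4*, the adipocyte fatty acid carrier, had 3249 RPKM in WT and 1473 RPKM in K36M cells at D2, 2.21-fold lower. It was already lower at D0, with 37.6 and 18.5 RPKM, and at D7 it had 2644 and 143 RPKM. *Plin1* and *Cidec*, which coat lipid droplets, had 36.8 and 138 RPKM in WT and 14.2 and 54.0 RPKM in K36M cells at D2. *Cd36*, a fatty acid receptor at the membrane, had 36.5 RPKM in WT and 10.7 RPKM in K36M cells, and *Lipe*, the hormone-sensitive lipase, had 145 and 44.3 RPKM. In K36M cells too, the D2 levels of these 5 genes were many times their D0 levels, which lay between 0.0889 and 18.5 RPKM. The 3 members on the higher side, *Plin5*, *Acsbg1* and *Aqp7*, were rare, with at most 2.44 RPKM in K36M cells.

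Fatty acid synthesis was divided. Of 24 measured genes, 6 were lower and 4 higher, with a median of -0.20, beside 4.37% lower and 11.2% higher over all genes. *Scd1*, the desaturase that makes oleic acid, had 1229 RPKM in WT and 414 RPKM in K36M cells (-1.57), whereas its neighbour *Scd2* had 151 RPKM in WT and 163 RPKM in K36M cells. *Hacd2*, which is not on the list and acts in elongating very long fatty acids, had 139.9 RPKM in WT and 18.8 RPKM in K36M cells (-2.89), and *Hsd17b12*, of the same elongation cycle, had 172 and 71.7 RPKM. *Fads1* and *Fads2*, desaturases of polyunsaturated fatty acids, lay on the other side, with 28.8 and 10.1 RPKM in WT and 60.6 and 23.8 RPKM in K36M cells. Genes of energy use were seldom called. Of 79 genes of the respiratory chain 1 was lower and 4 higher, and of 31 for fatty acid oxidation 1 was lower and 4 higher, close to or under the shares for all genes, although the median of the respiratory chain was -0.32.

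The transcription factors of adipogenesis did not move as a group. Of 49 regulators, 4 were lower and 6 higher, beside 4.37% and 11.2% over all genes. Their median was -0.04, beside 0.07 for all genes. The medians of the roles lay on opposite sides. The 29 activators (2 lower, 2 higher) had a median of -0.25 and the 20 inhibitors (2 lower, 4 higher) a median of 0.34. *Cebpa*, encoding C/EBPα, was the regulator with the largest decrease, at 208 RPKM in WT and 44.9 RPKM in K36M cells. *Pparg* had 66.7 and 49.6 RPKM, and *Cebpb*, which acts upstream of both, had 196 RPKM in WT and 197 RPKM in K36M cells (0.01, -0.05 to 0.07). The second activator on the lower side was *Nfib*, a nuclear factor I protein, with 39.3 RPKM in WT and 11.7 RPKM in K36M cells. Among the inhibitors, *Foxo1*, a forkhead factor restrained by insulin, had 15.8 and 5.95 RPKM, and *Gata3* had 9.17 and 2.01 RPKM. Its relative *Gata2* lay on the other side, with 4.81 RPKM in WT and 11.7 RPKM in K36M cells, as did *Id3* and *Id2*, which block basic helix-loop-helix factors, with 62.5 and 17.2 RPKM in WT and 168 and 40.2 RPKM in K36M cells.

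The remaining metabolic lists had genes on both sides, beside 4.37% lower and 11.2% higher over all genes. Of 33 adipokines and secreted factors 8 were lower and 8 higher. Of the 25 with at least 1 RPKM in both libraries 6 were lower and 2 higher, beside 2.98% and 6.98% of all such genes. *Angptl4*, which inhibits lipoprotein lipase, and *Vegfa*, the vascular growth factor, had 198 and 175 RPKM in WT and 181 and 212 RPKM in K36M cells, and neither passed 2-fold. Of 41 genes of insulin signalling and glucose uptake 5 were lower and 5 higher. Of the 36 with at least 1 RPKM in both libraries 4 were lower and 2 higher. *Irs2*, a substrate of the insulin receptor, had 102 and 41.5 RPKM, and *Pde3b*, through which insulin restrains lipolysis, had 107 and 40.8 RPKM. On the higher side of this list *Igfbp6*, a binding protein of insulin-like growth factors, had 0.731 and 11.1 RPKM. Of 30 genes of brown fat and thermogenesis 4 were lower and 6 higher, and 3 were lower without *Esrrb*, which has the pluripotency pattern. With at least 5 RPKM 1 of 19 was lower and 2 were higher, beside 3.1% and 7.33% of all such genes. *Ppargc1a*, a coactivator of mitochondrial genes, had 1.08 and 0.136 RPKM, whereas *Prdm16*, a regulator of brown fat fate, had 1.55 and 3.36 RPKM. *Ucp2*, a relative of *Ucp1*, had 72.8 and 17.0 RPKM. Of 24 genes of cholesterol synthesis 1 was lower and 2 higher, with a median of 0.38.

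The 20 genes with the largest decrease, ranked by the end of the interval nearest to no change, included few enzymes of fat. *Mos* (chr4:3797804-3799252, mm9), a kinase best known from oocytes, led with 24.7 RPKM from WT and 0.937 RPKM from K36M cells (-4.72, -5.51 to -4.03). At D0 *Mos* had 5.10 RPKM in WT and 12.2 RPKM in K36M cells, whereas Ctrl cells at D2 had 0.0343 RPKM. *Fgf10* (chr13:119458598-119580922, mm9), a growth factor secreted by preadipocytes and needed for fat development, had 19.3 RPKM in WT and 1.22 RPKM in K36M cells (-3.98, -4.35 to -3.64). Its values were ordered the same way at D0, with 5.55 and 0.242 RPKM, and at D7, with 8.70 and 1.18 RPKM. In the separate cultures at D2 *Fgf10* had 13.9 RPKM in Ctrl cells against 0.755 RPKM with KD.

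Several of these genes carry signals at the cell surface. *Jag1*, a Notch ligand, had 25.3 RPKM in WT and 3.43 RPKM in K36M cells, and *Gnai1*, an inhibitory G protein subunit, had 13.6 and 1.52 RPKM. *Pde4b*, which breaks down cAMP, had 41.5 RPKM in WT and 8.34 RPKM in K36M cells. *Rgs2*, a brake on G protein signalling that cAMP raises early in adipogenesis, had 285 RPKM in WT and 67.8 RPKM in K36M cells (-2.07, -2.13 to -2.01). Its D0 levels were 4.26 and 0.686 RPKM, so it rose many-fold in both populations. Among 34 cAMP-driven and immediate early genes, 9 were lower and 5 higher with a median of -0.02, beside 4.37% lower and 11.2% higher over all genes. With at least 5 RPKM in either library 7 of 26 were lower and 2 higher, with a median of -0.19. *Dusp4*, a phosphatase that switches off MAP kinases, had 44.2 RPKM in WT and 8.91 RPKM in K36M cells, while *Nr4a1* and *Myc* had 65.6 and 77.4 RPKM in WT and 78.0 and 66.0 RPKM in K36M cells. In the FGF pathway 4 of 16 genes were lower and 1 higher. Beside *Fgf10* these included the feedback inhibitors *Spry1*, with 7.69 RPKM in WT and 2.02 RPKM in K36M cells, and *Spry4*, with 14.2 and 6.03 RPKM, whereas the ligand *Fgf7* had 12.5 and 55.1 RPKM.

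Genes of the matrix and of contractile fibres, which preadipocytes normally turn down, were frequent on the higher side. Of 64 measured matrix proteins and matrix-remodelling enzymes, 32 were higher and 3 lower in K36M cells, with a median log2 ratio of 1.00. Of 22 collagens, 10 were higher and 1 lower with a median of 0.82, and of 25 contractile genes and targets of serum response factor (SRF), 11 were higher and none lower with a median of 0.83. In genes with at least 5 RPKM in either library, where the background was 3.1% lower and 7.33% higher, the matrix list still had 22 of 50 genes higher and 3 lower. A member under 1 RPKM in WT cells was counted only through its K36M level and so had to be higher there, though not necessarily by 2-fold. Among genes with at least 1 RPKM in both libraries, of which 2.98% were lower and 6.98% higher, 22 of 54 matrix genes, 7 of 19 collagens and 7 of 21 contractile genes were higher.

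*Lox*, the enzyme that cross-links collagen, had 9.92 RPKM in WT and 118 RPKM in K36M cells at D2, 11.9-fold higher (3.57, 3.46 to 3.69). At D0 *Lox* had 548 RPKM in WT and 316 RPKM in K36M cells, the opposite order, and at D7 361 and 373 RPKM. Only at D2 did its difference pass 2-fold. *Sparc*, a secreted collagen-binding protein, had 172 RPKM in WT and 668 RPKM in K36M cells at D2, beside 593 and 512 RPKM at D0. *Col1a2*, a chain of type I collagen, had 11.1 and 55.1 RPKM at D2 and 143 and 126 RPKM at D0. *Spp1*, osteopontin, had 29.9 and 319 RPKM at D2 and 423 and 479 RPKM at D0. For *Lox*, *Col1a2* and *Spp1* the D2 level in K36M cells lay between the D2 level in WT cells and both D0 levels, whereas *Sparc* in K36M cells at D2 was above its D0 levels.

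*Acta2*, smooth muscle actin, had 7.73 RPKM in WT and 57.5 RPKM in K36M cells at D2 (2.89, 2.70 to 3.09), against 529 and 424 RPKM at D0, so it had dropped in both populations and by less in K36M cells. *Myl9* and *Actg2*, a light chain and an actin of smooth muscle, had 1.21 and 0.916 RPKM in WT and 12.9 and 12.5 RPKM in K36M cells. *Actb*, the cytoplasmic actin, had 397 and 467 RPKM. The 4 smooth muscle markers summed to 12.7 RPKM in WT and 84.8 RPKM in K36M cells, and 3 were over 2-fold higher, but *Myh11*, the myosin that defines smooth muscle, stayed at 0.151 and 0.157 RPKM. The part of the other cell types in these results was not tested. Not all of the matrix followed. *Col15a1*, which is laid down around fat cells, had 442 RPKM in WT and 130.0 RPKM in K36M cells, and the chains *Col6a1* and *Col6a2* had 722 and 719.5 RPKM in WT and 461 and 533 RPKM in K36M cells. *Adamts1*, a matrix protease, had 72.9 and 19.2 RPKM.

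**Figure D3:**
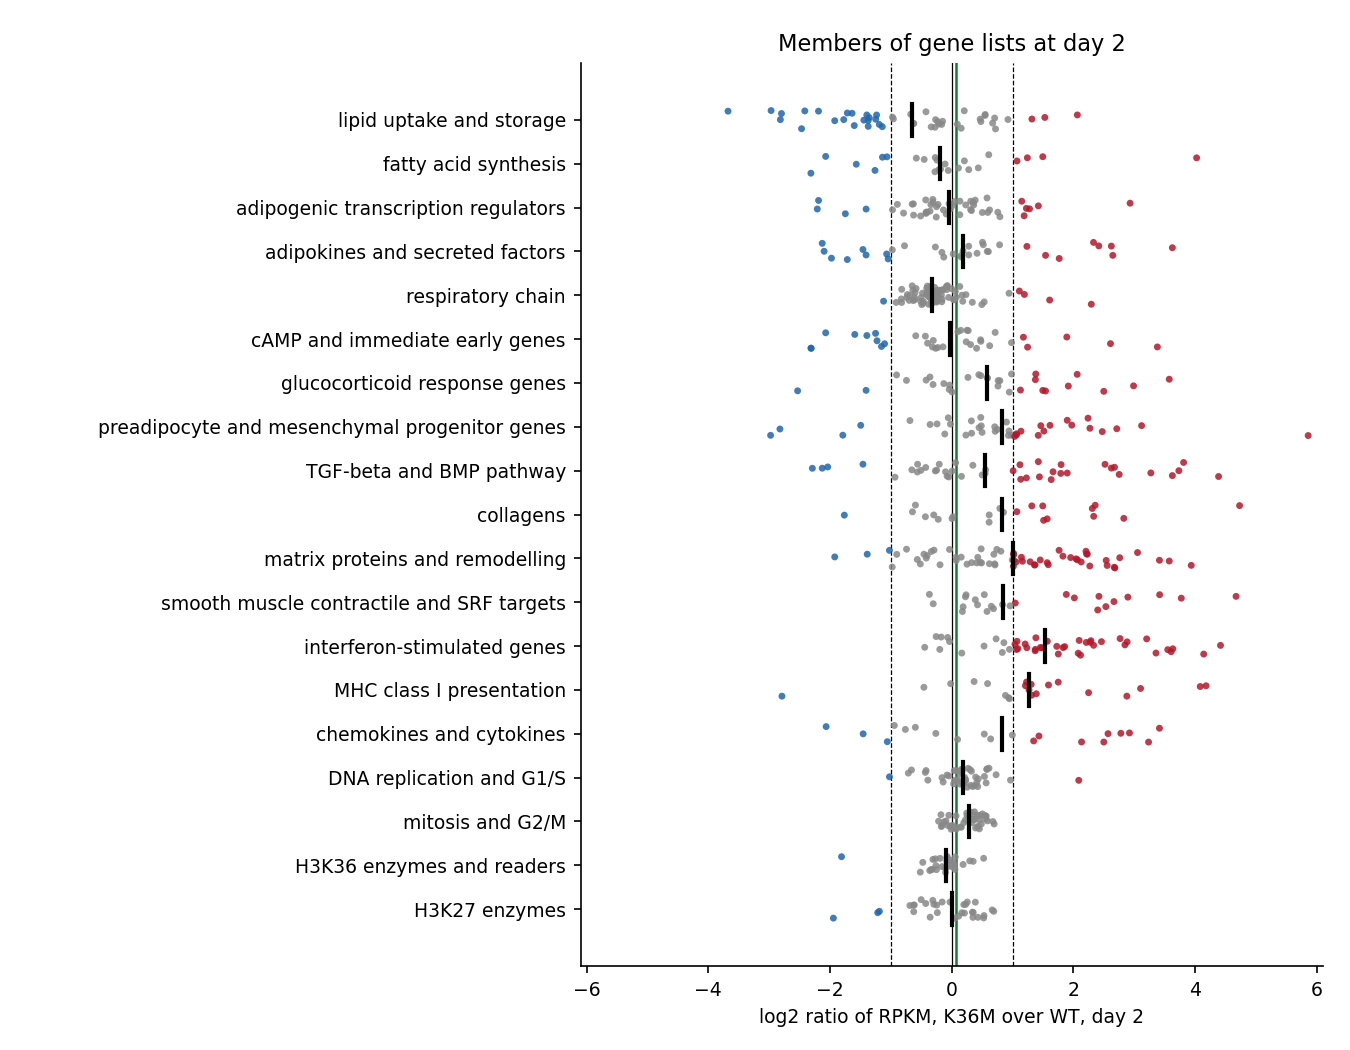
Log2 ratio of K36M over WT at D2 (x axis) for the measured members of the gene lists (rows), with blue dots for genes over 2-fold lower, red dots for genes over 2-fold higher and grey dots within 2-fold, and values beyond 6 drawn at the edge. The black bar is the median of a list, from -0.65 for lipid uptake and storage to 1.53 for interferon-stimulated genes, and the green line is the median of all 11964 genes, 0.07.

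Of 40 preadipocyte and mesenchymal progenitor genes, 16 were higher and 4 lower in K36M cells with a median of 0.82, beside 11.2% higher and 4.37% lower over all genes. *Ly6a*, the surface antigen Sca-1, had 31.3 RPKM in WT and 86.3 RPKM in K36M cells, and *Postn*, periostin, had 35.1 and 138 RPKM. *Dlk1*, the preadipocyte factor Pref-1, had 6.09 and 17.4 RPKM. Of the 4 on the lower side, *Osr1*, a transcription factor of connective tissue progenitors, had 3.75 RPKM in WT and 0.476 RPKM in K36M cells, and *Dcn*, decorin, had 4.83 and 1.40 RPKM.

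In the TGF-beta and BMP pathway 20 of 43 genes were higher and 4 lower, with a median of 0.55. The shares over all genes were 11.2% higher and 4.37% lower. By role, 5 of 9 ligands, 7 of 12 secreted antagonists, 6 of 12 target genes and 2 of 10 receptors were higher. *Inhbb*, the beta B chain of inhibin and activin, had 1.5 RPKM in WT and 31.3 RPKM in K36M cells (4.38, 4.12 to 4.66), while the beta A chain *Inhba* had 16.4 and 3.76 RPKM. *Grem1*, which binds and blocks BMPs, had 4.47 RPKM in WT and 59.4 RPKM in K36M cells at D2, after 255 and 485 RPKM at D0, and 17.7 and 384 RPKM at D7. *Ltbp1*, which holds latent TGF-beta in the matrix, had 1.92 and 26.9 RPKM. In the Wnt pathway 10 of 30 genes were higher and 3 lower, with a median of -0.03, and with at least 5 RPKM 4 of 19 were higher and 2 lower, with a median of -0.16. The 3 lower ones were receptors, among them *Fzd4*, with 12.7 and 5.91 RPKM, and 3 of 4 secreted inhibitors were higher, among them *Sfrp1*, with 1.95 and 18.8 RPKM. *Ctnnb1*, encoding beta-catenin, had 146 and 131 RPKM.

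The 20 genes with the largest increase, by the same ranking, included several secreted and surface proteins that were rare in WT cells at D2. *Prl2c3*, proliferin-3, led in level, with 1.54 RPKM in WT and 203 RPKM in K36M cells (7.05, 6.48 to 7.68), and at D0 it had 1.43 and 28.3 RPKM. It belongs to a family of near-identical copies, so its reads cannot be assigned to 1 gene with certainty. *Plac8*, a small cysteine-rich protein required for brown fat differentiation, had 2.86 RPKM in WT and 137 RPKM in K36M cells (5.58, 5.11 to 6.09), and *Il1rl1*, the IL-33 receptor, had 1.87 and 32.8 RPKM. *S100a4*, a calcium-binding protein of fibroblasts, had 9.02 and 123 RPKM at D2 and 362 and 347 RPKM at D0. *Sult5a1* had no read in the WT library and 5.37 RPKM in K36M cells, at least 39.6-fold higher against a floor of 3 reads in that library. *Crabp1*, which binds retinoic acid, had 0.706 RPKM in WT and 14.4 RPKM in K36M cells, and it was ordered the same way at D0, with 2.08 and 55.8 RPKM. Of 15 genes of retinoid metabolism 6 were higher and 1 lower, beside 11.2% and 4.37% over all genes. Of the 12 with at least 1 RPKM in both libraries 3 were higher and 1 lower, beside 6.98% and 2.98% of all such genes.

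Interferon-stimulated genes were frequent on the higher side. Of 46 measured, 34 were over 2-fold higher and none lower, with a median log2 ratio of 1.53. The minimum level shaped these values: 23 of the 46 were under 1 RPKM in WT cells and counted through their K36M level alone, and all 23 were among the 34. Of the other 23, with at least 1 RPKM in both libraries, 11 were higher with a median of 0.95, beside 6.98% higher over all such genes. With at least 5 RPKM in either library 12 of 23 were higher with a median of 1.04, below the 1.29 of MHC class I presentation and the 1.43 of chemokines and cytokines. The D2 levels were low beside those of the other times. The median RPKM of the list was 31.2 in WT and 19.4 in K36M cells at D0, 1.01 and 4.86 at D2, and 42.2 and 59.2 at D7. *Ifit1*, which binds viral RNA, had 0.933 RPKM in WT and 11.3 RPKM in K36M cells at D2 (3.60, 3.16 to 4.07), against 174 and 101 RPKM at D0. *Isg15*, a ubiquitin-like modifier, had 4.43 and 19.2 RPKM at D2 and 181 and 185 RPKM at D0. *Ifitm3*, a membrane protein that blocks virus entry and the most abundant member, had 131 RPKM in WT and 465 RPKM in K36M cells at D2 and 646 and 510.3 RPKM at D0. Both populations thus had less of these 3 transcripts at D2 than at D0, and the WT D2 library had the least. The receptor chain *Ifngr1* had 43.8 RPKM in WT and 38.8 RPKM in K36M cells.

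The interferon-driven factors bind an element, the ISRE, and 3 promoters are shown because their genes were the members with the largest increase whose promoter holds the letters of its core. They are RefSeq promoters of the GRCm38.p6 build, from 250 bases before to 50 bases after the start on the gene's own strand, with the motif TTTCNNTTTC, or GAAANNGAAA where it lies on the other strand, in capitals. Of all 27025 genes with a promoter, 1079 (3.99%) held it. Only 35 of the 46 measured list members had a promoter sequence, too few for a count over the list to be read. *Ifit1* (chr19:34640639-34640938) holds it at 2 places, beginning at offsets -104 and -85, where 0 is the first transcribed base. *Trim30a* (chr7:104446076-104446375), for which RefSeq has 2 promoters and 1 is shown, holds it at offset 2, and *Ifih1* (chr2:62646206-62646505) at offset 32. A match is a description of letters and not a bound site.
Ifit1: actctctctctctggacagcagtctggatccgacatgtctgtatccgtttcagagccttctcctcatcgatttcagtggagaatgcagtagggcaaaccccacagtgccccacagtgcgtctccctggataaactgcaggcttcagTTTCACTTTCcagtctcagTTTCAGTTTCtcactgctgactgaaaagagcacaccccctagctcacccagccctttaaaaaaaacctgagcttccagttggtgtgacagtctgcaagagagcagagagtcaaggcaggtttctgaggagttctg
Trim30a: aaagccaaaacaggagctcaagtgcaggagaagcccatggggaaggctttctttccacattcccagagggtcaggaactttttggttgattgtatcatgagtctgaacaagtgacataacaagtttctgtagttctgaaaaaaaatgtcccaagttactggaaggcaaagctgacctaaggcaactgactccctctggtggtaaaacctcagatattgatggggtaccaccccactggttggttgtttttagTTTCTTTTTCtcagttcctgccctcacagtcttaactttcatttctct
Ifih1: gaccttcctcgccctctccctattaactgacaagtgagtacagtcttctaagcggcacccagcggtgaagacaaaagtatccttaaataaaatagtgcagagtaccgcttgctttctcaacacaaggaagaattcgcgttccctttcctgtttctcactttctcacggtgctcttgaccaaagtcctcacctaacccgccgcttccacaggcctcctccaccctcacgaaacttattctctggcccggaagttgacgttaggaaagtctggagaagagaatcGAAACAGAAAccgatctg
*Trim30a*, a tripartite motif protein, had 0.361 RPKM in WT and 3.32 RPKM in K36M cells at D2, and *Ifih1*, the RNA sensor MDA5, had 0.920 and 5.06 RPKM.

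Antigen presentation and chemokines showed the same side. Of 21 genes of MHC class I presentation 13 were higher and 1 lower, with a median of 1.27. Over all genes 11.2% were higher and 4.37% lower, and 6.98% and 2.98% of those with at least 1 RPKM in both libraries. Of the 17 such members 10 were higher and none lower. *B2m*, the shared light chain, had 295 RPKM in WT and 568 RPKM in K36M cells (0.95), just within 2-fold, while *H2-Q6* and *H2-Q7*, near-identical genes whose reads may be shared, had 0.854 and 0.415 RPKM in WT and 15.5 and 7.04 RPKM in K36M cells. *Cd1d1*, which presents lipids, was the member on the lower side, with 6.59 and 0.953 RPKM. Of 20 chemokines and cytokines 9 were higher and 3 lower. Of the 15 with at least 1 RPKM in both libraries 6 were higher and 3 lower, with a median of 0.53. *Ccl2* and *Ccl7*, which attract monocytes, had 12.8 and 9.63 RPKM in WT and 72.3 and 90.6 RPKM in K36M cells, after 1216 and 811 RPKM in WT and 522 and 479 RPKM in K36M cells at D0. *Cxcl12* was on the lower side at D2, with 41.6 and 15.2 RPKM. Among acute-phase proteins on the list of adipokines, *Saa3* had 286 and 66.9 RPKM, *Lcn2* 269.6 and 102 RPKM, and *C3* 52.1 and 15.9 RPKM. *Hp*, haptoglobin, had 33.2 and 40.2 RPKM, within 2-fold, and *Orm1* and *Orm2* were higher, with 0.273 and 0.744 RPKM in WT and 1.45 and 2.17 RPKM in K36M cells.

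Since dexamethasone lowers inflammatory genes, a list of glucocorticoid response genes was counted as well. Of 31, 10 were higher and 2 lower in K36M cells, with a median of 0.59, beside 11.2% and 4.37% over all genes. However, the 10 include *Lox* and *Ccl2*, which glucocorticoid is known to lower. *Fkbp5*, a chaperone of the receptor, had 56.8 RPKM in WT and 148 RPKM in K36M cells, and *Sgk1*, a kinase, had 7.46 and 28.2 RPKM. The metallothionein *Mt2* had 591 and 1003 RPKM, within 2-fold. *Cdkn1c*, a cell cycle inhibitor that glucocorticoid raises, was one of the lower members, with 6.79 and 1.17 RPKM.

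Few genes of chromatin and of cell division were called. None of 14 genes for H3.3 and its chaperones passed 2-fold in either direction, with *H3f3a* at 21.5 RPKM in WT and 21.7 RPKM in K36M cells and *H3f3b* at 182 and 157 RPKM, values that include any reads of the virus matching these transcripts. Of 30 enzymes and readers of H3K36 methylation, 1 was lower, the DNA methyltransferase *Dnmt3b*, with 1.38 and 0.392 RPKM. *Nsd2*, *Nsd1* and *Setd2*, the main H3K36 methyltransferases, had 24.5, 21.2 and 16.0 RPKM in WT and 23, 20.1 and 14.9 RPKM in K36M cells. Of 32 genes for H3K27 enzymes and for members of PRC1 and PRC2, 3 were lower. *Jarid2*, a partner of PRC2, had 15.0 and 3.90 RPKM. *Uty*, of a demethylase family, had 7.38 and 3.18 RPKM, and *Cbx7*, of PRC1, had 1.32 and 0.579 RPKM. *Ezh2*, the PRC2 methyltransferase, had 23.8 and 16.8 RPKM. Of 46 genes of DNA replication and G1/S 1 was lower and 1 higher, and none of 43 genes of mitosis and G2/M passed 2-fold. The 2 were *Ccnd2*, with 169.9 and 83.6 RPKM, and *Ccnd1*, with 1.88 and 7.97 RPKM, both D-type cyclins. Of 25 cell cycle inhibitors and p53 targets 2 were lower and 2 higher, with *Cdkn1a*, p21, at 309 and 203 RPKM.

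Developmental genes included some that were almost silent in WT cells. Of 31 Hox genes, which set body position, 8 were higher and none lower, but none of the 11 with at least 5 RPKM passed 2-fold, and between 1 and 2 RPKM 28.7% and between 2 and 5 RPKM 18.1% of all genes were higher. *Hoxa11* and *Hoxb13* had 0.0700 and 0.159 RPKM in WT and 2.56 and 4.19 RPKM in K36M cells at D2, and at D0 they had 0.250 and 0.0712 RPKM in WT and 3.25 and 2.61 RPKM in K36M cells. Of 37 regulators of other lineages 12 were higher and 7 lower, 1 of the 7 being *Sox2* of the pluripotency pattern, and with at least 5 RPKM 4 of 16 were higher and 3 lower, beside 7.33% and 3.1% of all such genes. *Foxf1*, a forkhead factor of mesoderm, had 0.444 and 7.44 RPKM, and *Sox11* had 9.13 and 1.97 RPKM. Of 21 imprinted growth genes 8 were higher and 2 lower, beside 11.2% and 4.37% over all genes. Among the higher was *Peg10*, with 24.5 and 119 RPKM.

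The same lists were then counted at the other times and after *Nsd2* KD, each within its own pair of libraries. At D0 6.36% of 12239 genes were lower and 5.02% higher in K36M cells, at D7 8.46% of 12587 were lower and 11.7% higher, and after KD at D2 9.57% of 11561 were lower and 4.88% higher than in Ctrl cells. *Nsd2* had 29.0 RPKM in Ctrl cells against 7.01 RPKM with KD. For lipid uptake and storage, 3 of 43 genes were lower and 2 higher at D0, 31 of 54 were lower and 4 higher at D7, and 27 of 45 were lower and none higher after KD. The medians were 0.03 at D0, -0.65 at D2, -1.82 at D7 and -1.59 after KD. Fatty acid synthesis and the respiratory chain, split or near background at D2, had 18 of 25 and 42 of 81 genes lower at D7, with medians of -1.74 and -1.03.

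The matrix and interferon lists did not keep 1 direction over the comparisons. The matrix list had 25 of 68 genes lower and 4 higher at D0, 32 of 64 higher at D2, 28 of 74 higher and 11 lower at D7, and 30 of 61 lower and 6 higher after KD, with medians of -0.77, 1.00, 0.68 and -0.99. Interferon-stimulated genes had 14 of 58 lower and none higher at D0, 19 of 59 higher and 2 lower at D7, and 29 of 50 lower and none higher after KD, with medians of -0.56, 0.75 and -1.08 around the 1.53 of D2. *Ifit1* had 11.5 RPKM in Ctrl cells against 2.23 RPKM with KD, and *Col1a2* had 35.3 and 1.32 RPKM. Contractile genes were near background at D0, with 1 of 26 lower and 3 higher, had 14 of 27 higher and 1 lower at D7, and 2 of 20 lower and none higher after KD. *Acta2* had 7.00 RPKM in Ctrl cells against 5.41 RPKM with KD.

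**Figure D4:**
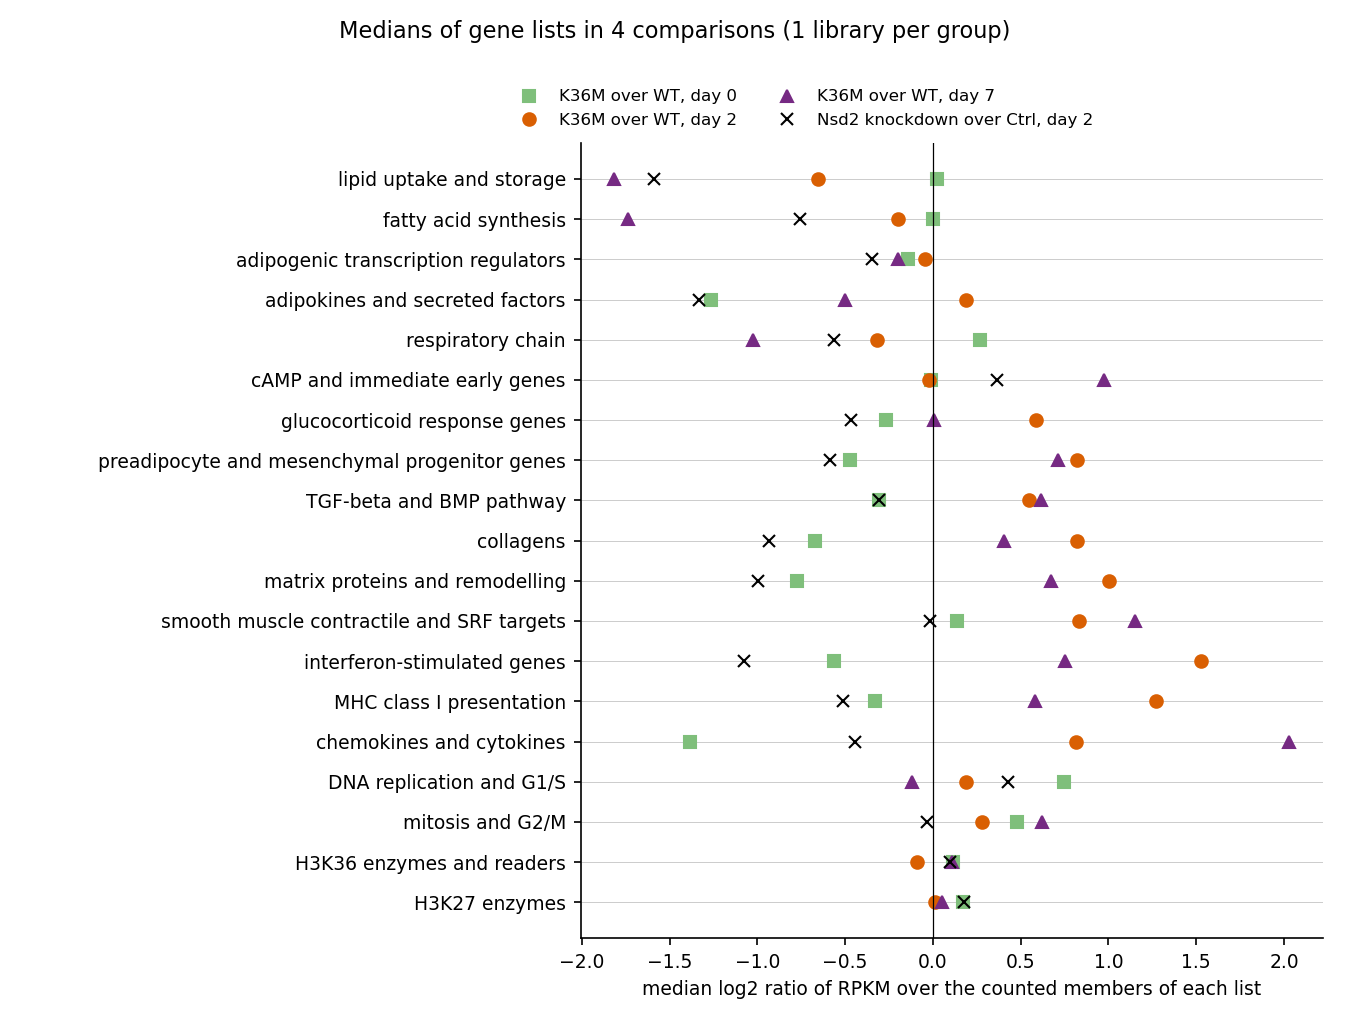
Median log2 ratio of 19 gene lists (rows) for K36M against WT cells at D0, D2 and D7 and for *Nsd2* KD against Ctrl cells at D2 (x axis). Lipid uptake and storage lies below 0 at D2, D7 and after KD, whereas matrix and interferon-stimulated genes lie above 0 at D2 and D7 and below 0 at D0 and after KD.

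Gene by gene, 131 of the 523 lower genes (25%) were also over 2-fold lower at D0, which is 16.8% of the 779 lower genes of D0, and 16 were higher there. At D7 251 of them (48.0%, and 23.6% of the 1065 of D7) were lower and 21 higher, with a median of -1.22. After KD 178 (34.0%, and 16.1% of the 1106 of KD) were lower and 26 higher. Of the 1338 higher genes, 215 (16.1%, and 35% of the 615 of D0) were also higher at D0 and 129 were lower there, 604 (45.1%, and 40.9% of the 1478 of D7) were also higher at D7 and 70 lower, and 167 (12.5%, and 29.6% of the 564 of KD) were also higher after KD and 207 lower. The first percentages are of all 523 or 1338 genes, although not all of them were counted elsewhere. Of the 523, 430 were counted at D0, 460 at D7 and 434 after KD. Of the 1338, 1157 were counted at D0, 1237 at D7 and 932 after KD. Lower in all 4 comparisons were 42 genes, and higher in all 4 were 29.

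**Figure D5:**
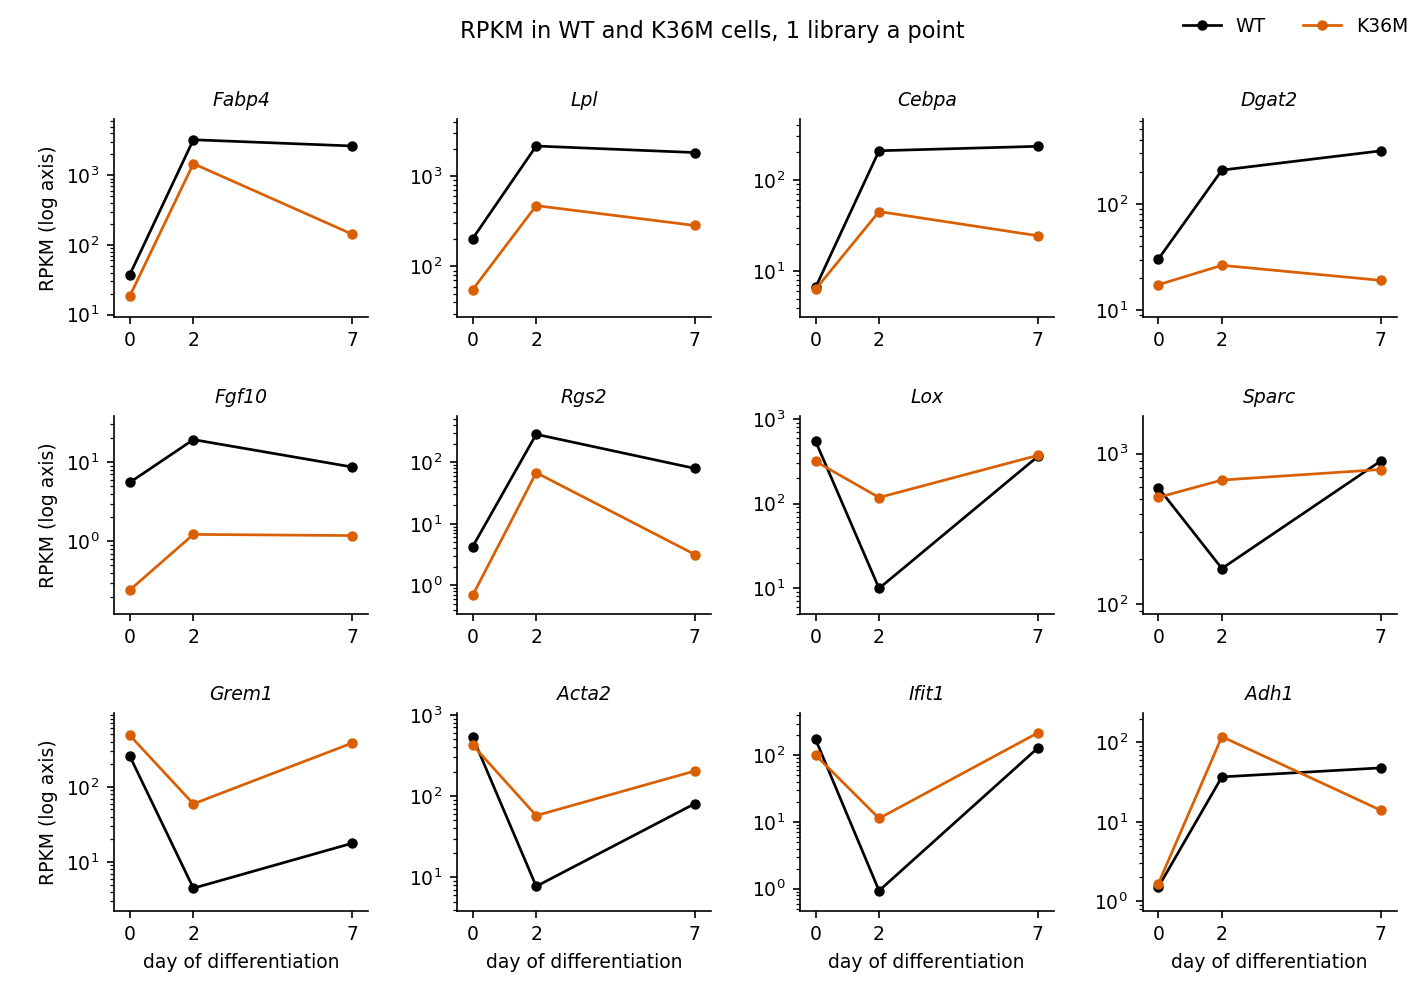
RPKM on a log axis (y axis) of 12 genes at D0, D2 and D7 (x axis) in WT and K36M cells, 1 library per point. *Fabp4*, *Dgat2* and *Cebpa* lie apart at D2 and further apart at D7, *Lox*, *Acta2*, *Grem1* and *Ifit1* dip at D2 and less in K36M cells, *Sparc* dips at D2 in WT cells, and *Fgf10* lies lower in K36M cells at each time.

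The distance between the 2 populations changed with time in some members. *Hacd2* and *Hilpda* were named because their D0 levels were close. *Hacd2* had 6.16 RPKM in WT and 6.01 RPKM in K36M cells at D0, and *Hilpda*, a lipid droplet protein induced by hypoxia and fatty acids, had 7.78 and 7.77 RPKM at D0, 30.9 and 5.59 RPKM at D2, and 5.72 and 5.90 RPKM at D7. Of the 3 times, *Hilpda* was thus apart at D2 alone. *Adh1*, an alcohol dehydrogenase that also oxidizes retinol, had 36.8 RPKM in WT and 118 RPKM in K36M cells at D2, and 47.8 and 14 RPKM at D7, and so changed side. *Adipoq*, the adiponectin gene and a late marker, had 1.56 RPKM in WT and 0.286 RPKM in K36M cells at D0. At D2 it had 6.16 and 10.6 RPKM, within 2-fold, and at D7 287 and 21.0 RPKM. *Pparg* had 101 RPKM in WT and 21.4 RPKM in K36M cells at D7.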

How the data were processed

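RNA-Seq libraries of poly(A)-selected RNA from WT and K36M cells and from Ctrl and *Nsd2* KD cells were used, 1 per condition. For each library the authors deposited RPKM for 29082 RefSeq transcripts. The submitters' processing notes name mm9 and CASAVA 1.8.2, and the program that counted reads, its use of strand and of reads matching several genes, is not given in the sources used here, so near-identical and overlapping genes are uncertain. Symbols from RefSeq were found for 28436 transcripts (97.8%), and gene coordinates are those of GENCODE M1 (mm9). Whole reads were recovered for each of the 26946 transcripts above 0 in at least 2 libraries and tested on simulated data.

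Genes with at least 1 RPKM in either library were compared by the ratio of RPKM with no pseudocount, and called over 2-fold. With 1 library per group there is no test. The trimmed mean of M-values scaling was computed with numpy. Members and the 31 gene lists were chosen with earlier results of these data known. Genes were named by rank: the 20 largest changes each way with at least 5 RPKM, the 4 most abundant and 4 largest each way per list, all genes of the H3.3, H3K36 and H3K27 lists, 8 each way for shared or D2-specific changes, and *Nr3c1*. After their values were seen, marker genes, *Cd36*, *Lipe* and *Isg15* were added for their roles, acute-phase genes to complete a group, and *Trim30a* and *Ifih1* for their promoters. Some genes that the ranks named are not reported here. Alternatives were other minimum levels, pseudocounts, scalings and folds. Libraries with PPARγ and Rosi were used only to choose transcripts. Python 3.11.15, numpy 2.4.6, pandas 2.3.3, scipy 1.17.1 and matplotlib 3.10.9 were used.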

Additional observations from a re-analysis of the deposited data

Results flagged for a closer look

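The genes below lay past 2-fold, by the end of the counting interval nearest to no change, in 1 direction at D2 and past 2-fold in the other at D0 or D7. The difference between times was not tested, since each rests on 1 library per group. Against D0, genes higher in K36M cells at D2 and lower at D0 were the matrix-associated secreted proteins *Ccn2* (log2 ratios 3.27 and -1.87), *Ccn3* (2.65 and -3.28), *Olfml3* (4.10 and -1.63) and *Postn* (1.97 and -1.10), the Wnt inhibitor *Sfrp1* (3.27 and -2.66), the chemokine *Ccl2* (2.5 and -1.22), the surface antigen *Ly6a* (1.46 and -1.70), the cell cycle inhibitor *Cdkn2b* (1.63 and -1.60) and *Id3* (1.42 and -1.54). *Dusp4* went the other way, with -2.31 at D2 and 2.13 at D0. Against D7, genes higher at D2 and lower at D7 were *Thrsp*, a lipogenic protein (4.02 and -5.03), the peroxisomal enzyme *Ehhadh* (1.98 and -2.67), *Adh1* (1.69 and -1.77), the vascular ligand *Angpt2* (2.33 and -1.34) and the respiratory chain subunit *Cox7c* (2.29 and -1.23), while *Inhba* had -2.13 at D2 and 1.62 at D7.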

How the results depend on the processing

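The counts of 523 lower and 1338 higher genes depended on the minimum level and the fold. They were 1762 and 3948 with any RPKM above 0, 273 and 645 with at least 5 RPKM in either library, 325 and 761 with at least 1 RPKM in both, 337 and 830 with 1 added to each RPKM, and 155 and 467 over 4-fold. Of the genes induced in Ctrl cells, 54 in place of 209 were lower over 4-fold, and 46, 51 and 26 in place of 78 were higher with at least 5 RPKM, with 1 added and over 4-fold. Of the genes repressed in Ctrl cells, 362, 415, 437 and 239 in place of 665 were higher with at least 5 RPKM, at least 1 RPKM in both libraries, 1 added and over 4-fold. In place of 45, 79 were lower with any RPKM above 0, and 16, 17, 25, 15 and 29 were lower with at least 5 RPKM, at least 1 RPKM in both, 1 added, over 4-fold and without transcripts under 200 bases. The causes were not tested. Higher genes made up 71.9% of the called genes, 67.9% with the median ratio set to 0 (582 lower, 1231 higher) and 65.1% with trimmed mean scaling (626 and 1166). The median log2 ratio of all genes was 0.07 as reported and -0.04 with trimmed mean scaling. No named gene past 2-fold changed side. With at least 5 RPKM, adipokines went from 8 lower and 8 higher to 6 and 2, and Hox genes from 8 higher to none. Of the recomputed values, 126 of the gene lists and 303 of the named genes moved, and 494 and 1622 did not. No paired analysis was possible because each condition has 1 library and the result comes from no test. At 3 reads, 0.157 and 0.239 RPKM of a 1-kb transcript, ratios of rare genes are set by few reads.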
